A study of Mus musculus with 2 samples.

Results

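A set of 7 genes of the pluripotency network that bear peaks of the transcriptional co-regulator Bcl3 were examined in mouse embryonic stem cells. They are Esrrb, Klf2, Tfcp2l1, Zfp42, Mybl2, Fgf4 and Dppa5a. They were taken by name from the authors' annotation of the peak list, where they are the closest genes of 8 of the 1130 listed peaks, and are 7 of the 592 genes closest to a peak. They were chosen by the presence of a listed peak, so that presence is no result, and strengths and positions are given as a description with no test. The peaks came from 1 library made by chromatin immunoprecipitation and sequencing (ChIP-seq) with an anti-Bcl3 antibody, beside 1 input library, which was not analysed here on its own. Both were prepared from CGR8, a mouse embryonic stem cell line, grown without feeder cells on 0.1% gelatin with 15% knock-out serum replacement and leukemia inhibitory factor (LIF) at 1000 U/ml. Each group held 1 library, so there is no replicate error to set beside a value, and the read depth is unknown.

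LIF helps to keep mouse embryonic stem cells in the naive state, which resembles the epiblast before implantation, by activating Stat3. A set of transcription factors, among them Esrrb, the Krüppel-like factors and Tfcp2l1, sustains that state together with Oct4, Sox2 and Nanog, and is switched off when cells move to the primed state. Bcl3 is a nuclear IκB-family protein that does not bind DNA by itself and acts through NF-κB subunits bound to κB sites. The genes differ in role. Esrrb, Klf2, Tfcp2l1 and Zfp42 are naive-state transcription factors or markers, whereas Mybl2 is a cell cycle transcription factor, Fgf4 a secreted signal and Dppa5a an RNA-binding protein.

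None of the 8 peaks overlapped the promoter stretch around the listed start. Of the 623 listed peaks with a closest transcript, 72 (11.6%) overlapped the stretch from 250 bp before to 50 bp after the listed start, and 0 of the 8 did. With only 8 peaks, 0 is near that share and is not read as a trait of these genes. Promoter sequences of that stretch were held in a RefSeq table of build GRCm38.p6 for 6 of the genes, with a pair of starts for Esrrb, and Dppa5a was not in it. Since NF-κB binds κB sites, a loose κB pattern was searched on both strands, namely GGG, any 5 bases, then CC, with overlapping matches allowed. It was present in 7 of 7 promoters of these genes, but also in 50.8% of 32851 promoters in the table. The 7 promoters held 55.3 to 69.7% G and C, against a median of 52.7% over the table, and the part of composition in the matches was not tested. The match nearest to each start is shown so that the promoters can be compared, in capitals, within up to 30 bases on the gene's strand, with GRCm38.p6 positions that are not those of the peaks. The match at the downstream Esrrb start fits the pattern on the opposite strand, and the others fit it on the strand shown. A match is a resemblance in letters only, and these stretches lie outside the peaks.
Esrrb, upstream start, chr12:86361026-86361055, plus strand: ggggggggggGGGCTTTTCCttcacagggt
Esrrb, downstream start, chr12:86421514-86421543, plus strand: aagtctcttgGGCTGGCCCCccttccccca
Klf2, chr8:72319037-72319066, plus strand: aggcctgggtGGGCCGGGCCacagcacaca
Tfcp2l1, chr1:118627856-118627885, plus strand: gctagccgtaGGGACGGCCCtgcaataacc
Zfp42, chr8:43307085-43307114, minus strand: gaagggccagGGGCCCGCCCacatccccgc
Mybl2, chr2:163054593-163054622, plus strand: cgccagggccGGGCGGCGCCgacgcacttg
Fgf4, chr7:144861381-144861410, plus strand: tgggcgcgcgGGGACTATCCcgccaccgtt

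Peak sequences themselves are not shown, because the peaks are in build mm9 and no genome of that build was used here. All peak positions below are mm9, as deposited. Strength is given as the authors' values for each peak, namely the log2 of the greatest fold enrichment (the header names no denominator), the −log10 of the smallest Poisson p, and a false discovery rate (FDR).

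The peaks sat either in an intron or beyond the gene's end. The summit of 4 of the 8 peaks lay in an intron (Esrrb, Tfcp2l1, Zfp42, Mybl2) and that of the other 4 past the end of the transcript (the pair at Klf2, and those at Fgf4 and Dppa5a). Among all 623 peaks with a closest transcript, 57.6% had their summit in an intron and 11.4% past the end. Another 507 listed peaks had no closest transcript and are outside these shares. Among the peaks past an end, the midpoint was at most 7954 bp beyond it. The exon share was 12.8% and the upstream share 18.1%, and 0 of the 8 peaks fell in either class. So few peaks cannot show a trait of the genes here either. Peak midpoints within 5 kb of the listed start numbered 3 of 8, against 43.5% of the 623. Transcript length split the genes in the same way. The 4 genes with an intronic peak have listed transcripts of 11943 to 99985 bp, and the other 3 have transcripts of 1146 to 3858 bp.

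**Figure D1:**
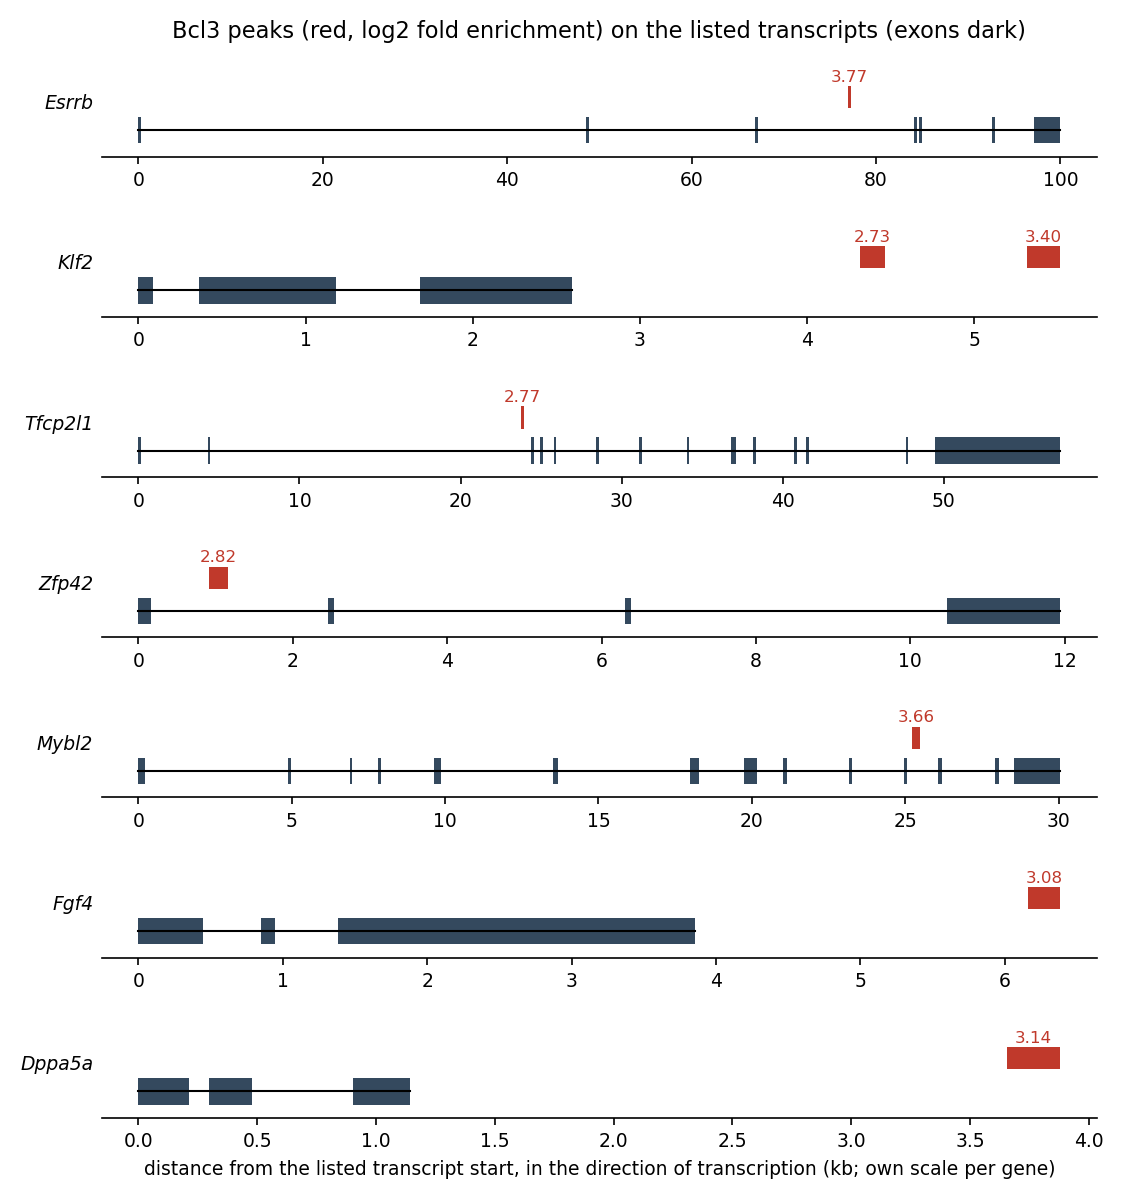
Each panel draws the listed transcript of a gene from its start (0 on the horizontal axis, in kb in the direction of transcription, with a scale of its own), with exons as dark boxes and Bcl3 peaks as red boxes labelled with their log2 fold enrichment. The peaks of Esrrb, Tfcp2l1, Zfp42 and Mybl2 stand over introns, and those of Klf2, Fgf4 and Dppa5a lie to the right of the last exon.

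Strength varied widely within the set. The log2 fold enrichment ran from 2.73 to 3.77 over the 8 peaks with a median of 3.11, against 2.48 to 4.02 and a median of 2.94 over the other 615 peaks with a closest transcript. Of the 8 peaks, 5 lay above the median of all 1130 peaks, 2.93. By the Poisson score the order was different. The median −log10 Poisson p of the 8 peaks was 5.37, against 5.82 for the other 615, and 6 of the 8 lay below the median of all peaks, 5.80. Those 6 ran from 5.18 to 5.46, close to the lowest score in the whole list, 5.0. The score exceeded 10 in 1 of the 8 (Fgf4), against 2.57% of all peaks. The lowest FDR in the list, 0.179, was given to 3 of the 8 (Esrrb, Mybl2 and the stronger Klf2 peak), against 21.1% of all peaks. Within the 8 the FDR followed the order of fold enrichment, not that of the Poisson score. It is therefore not a further measure of strength beside the fold. Counted by gene, 3 of the 7 were closest to a peak of the lowest FDR. Among all protein-coding genes closest to a peak, 136 of 552 were, which is the like comparison. Of all 21900 protein-coding genes, 0.621% were closest to a peak of the lowest FDR and 2.52% to any peak. Because the genes were chosen for having peaks, these shares are given for scale only. Even the lowest rate leaves an appreciable estimated share of false peaks.

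**Figure D2:**
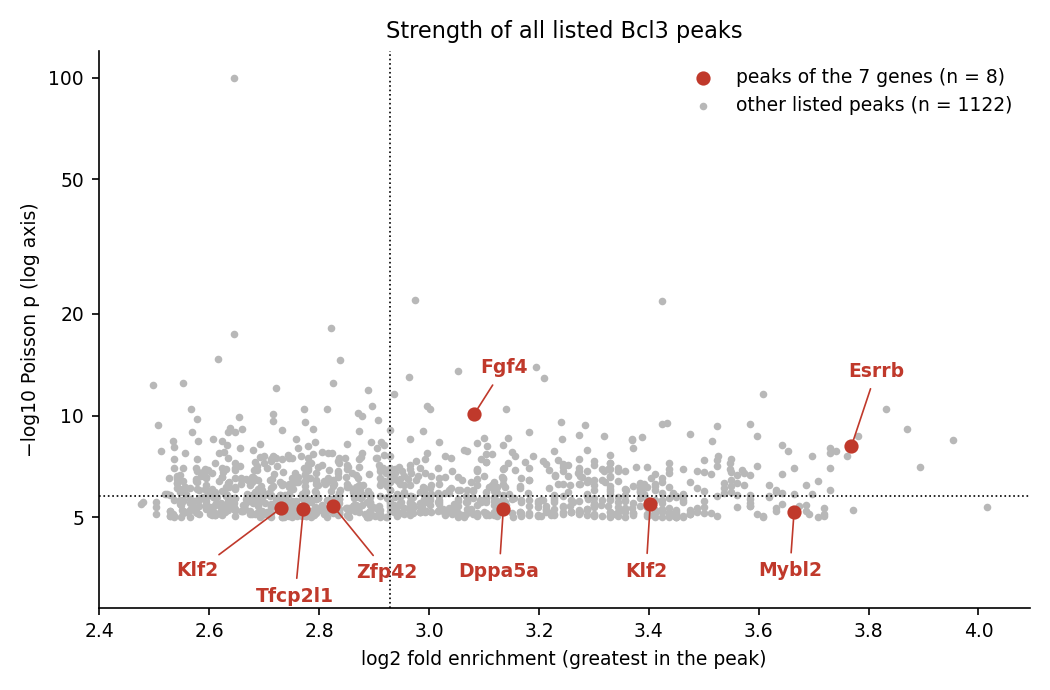
Every listed peak is a point, with the log2 fold enrichment on the horizontal axis and the −log10 Poisson p on a logarithmic vertical axis. Red points are the 8 peaks of the named genes, grey points the other listed peaks, and dotted lines the medians of all 1130. Esrrb and Mybl2 stand far to the right, Fgf4 stands highest of the 8, and Klf2 (2.73), Tfcp2l1 and Zfp42 lie in the lower left.

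Esrrb, an orphan nuclear receptor that binds many of the same enhancers as Oct4 and Nanog, carried the strongest of these peaks by fold enrichment, on chromosome 12 at 87839550 to 87839899. Its log2 fold enrichment was 3.77, which is 13.6-fold, higher than 99.4% of the other listed peaks, and its −log10 Poisson p was 8.12 (rank 87 of 1130). Of the 359 intronic peaks 3 were stronger by fold. At 350 bp it was the longest of the 8. On the closest transcript it lay in intron 3 of 6, 77.1% of the way along. That intron has 17151 bp, and the peak was 9937 bp after the preceding exon and 6864 bp before the next. Intron number was read from that transcript only. How far the peak lies from the gene's start, and how far along the gene, depends on the transcript. The closest-transcript annotation places the start 77.1 kb away and the wider annotation, which lists all genes around a peak, 137.7 kb away. Those starts are 60.5 kb apart, and so are the pair of Esrrb promoters shown above. No other gene shared the peak at close range. The nearest other listed starts were those of Vash1, a gene for an angiogenesis inhibitor, at 179.9 kb on the far side, and of Gpatch2l at 256.9 kb on the side of the Esrrb start. The next listed peak on the chromosome was 2304525 bp away, so 0 other peaks lay within 1 Mb.

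Mybl2 (B-Myb), a transcription factor that drives genes of late cell cycle phases and is abundant in embryonic stem cells, had the next strongest peak by fold enrichment, on chromosome 2 at 162905600 to 162905849. The log2 fold enrichment was 3.66 (12.7-fold, rank 27), but the −log10 Poisson p of 5.18 was the lowest of the 8 and ranked 970. The peak lay in intron 11 of 13, an intron of 1010 bp, starting 157 bp after exon 11 and ending 603 bp before the next exon. It was 25.4 kb from the gene's start and 4.7 kb before its end. Mybl2 was the only member whose peak was nearer to the start of another gene. Gtsf1l, a gametocyte-specific factor gene transcribed toward Mybl2 from the other side, started 9.6 kb from the peak, which lay 7042 bp beyond that gene's end. Ift52, an intraflagellar transport gene, followed at 62.5 kb. The assignment to Mybl2 rests on the peak's place inside the gene.

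Klf2, a Krüppel-like zinc finger factor that shares functions with Klf4 and Klf5 in these cells, was the only member with a pair of peaks, and 4.9% of the 592 closest genes had 2 or more. Both lay past the gene's end on chromosome 8. The stronger, at 74848275 to 74848474, had a log2 fold enrichment of 3.40 (10.6-fold), a −log10 Poisson p of 5.46 and an FDR of 0.179, with its midpoint 2822 bp past the end. The weaker, at 74847275 to 74847424, had 2.73 (6.64-fold), 5.32 and 0.429, 1797 bp past the end. In the wider annotation these distances past the end were 3127 and 2102 bp. The peak farther from the gene was thus the stronger by 0.67 on the log2 scale, or 1.59-fold. A gap of 850 bp separated them, the 6th shortest among the 27 genes with exactly 2 peaks, and the difference in fold was the 3rd largest among those. Joined, they span 1200 bp. The neighbourhood held many genes but none close by. The nearest other starts were those of Ap1m1, a clathrin adaptor subunit gene, at 84.3 kb from the stronger peak, and of the endocytic gene Eps15l1 at 97.0 kb, whose end lay 16523 bp away.

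Tfcp2l1, a CP2-family factor induced by LIF and Stat3, had a weak peak on chromosome 1 at 120548300 to 120548449. Its log2 fold enrichment was 2.77 (6.83-fold), its −log10 Poisson p 5.31 and its FDR 0.402, and 30.3% of the other listed peaks were weaker by fold. The peak lay at the far end of intron 2, an intron of 19907 bp, 427 bp before exon 3. It was 23.9 kb from the start. In the wider annotation the gene stands under an older symbol, Tcfcp2l1, with the same RefSeq identifier and the same distance. The region around it was sparse. The next start, of the microtubule-binding gene Clasp1, was 262.7 kb away, although the end of Clasp1 was 42336 bp away, and Gli2, a Hedgehog pathway transcription factor, started at 401.8 kb.

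Zfp42 (Rex1), a zinc finger gene widely used as a marker of naive cells, had the peak nearest to a start, on chromosome 8 at 44391200 to 44391449. Its midpoint was 1038 bp downstream of the start, and its near edge 913 bp. The log2 fold enrichment was 2.82 (7.09-fold), the −log10 Poisson p 5.41 and the FDR 0.372. The authors' sheets label this peak differently. The wider annotation calls it 5′ UTR, while the class table flags it as intron and not as 5′ UTR. By the listed exons it lay in intron 1 of 3, 744 bp after exon 1 and 1287 bp before exon 2, ahead of the coding region. The same held more broadly. Of 66 peaks that the wider annotation labels 5′ UTR for their closest transcript, 46 had the summit in an intron and 19 in an exon. Zfp42 stood alone in its region. The nearest other starts were those of Triml1 at 164.5 kb and Adam26b at 222.2 kb.

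Fgf4, a fibroblast growth factor that embryonic stem cells secrete and that promotes exit from the naive state through Erk signalling, had the highest Poisson score of the set. The peak, on chromosome 7 at 152053450 to 152053674, had a −log10 Poisson p of 10.1 (rank 28 of 1130), with a moderate log2 fold enrichment of 3.08 (8.47-fold, rank 417) and an FDR of 0.251. It lay 2415 bp past the end and 6272 bp from the start. A known enhancer of Fgf4, bound by Oct4 and Sox2, is in the last exon, and the peak lay outside that exon. Other FGF genes surround it. Fgf15 started 28.9 kb away on the far side and Fgf3 29.0 kb away on the near side, and 4 other genes in all had a start within 100 kb. The next listed peak was 2645350 bp away, so the peak stood alone over the whole FGF cluster.

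Dppa5a (Esg1), an RNA-binding protein gene expressed in pluripotent cells, had its peak on chromosome 9 at 78212125 to 78212349, 2623 bp past the end and 3768 bp from the start of a transcript of only 1146 bp. The log2 fold enrichment was 3.14 (8.79-fold), the −log10 Poisson p 5.30 and the FDR 0.234. It had close neighbours. Ooep, an oocyte-expressed gene of the same protein family, started 14.2 kb from the peak and the glutathione transferase gene Gsta2 17.3 kb away on the other side, and 6 other genes in all had a start within 100 kb. The Dppa5a region was also the richest in peaks, with 3 others within 1 Mb. The wider annotation lists these for Dppa5a too, at 113.4, 135.6 and 247.9 kb upstream, with log2 fold enrichments of 3.19, 3.04 and 2.99. They are nearer to other genes. The peak at 113.4 kb lay 206 bp from the start of Eef1a1, a translation elongation factor gene, and that at 247.9 kb lay 266 bp from the start of Cd109. The peak at 135.6 kb was 22044 bp from the Eef1a1 start and had no closest transcript.

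**Figure D3:**
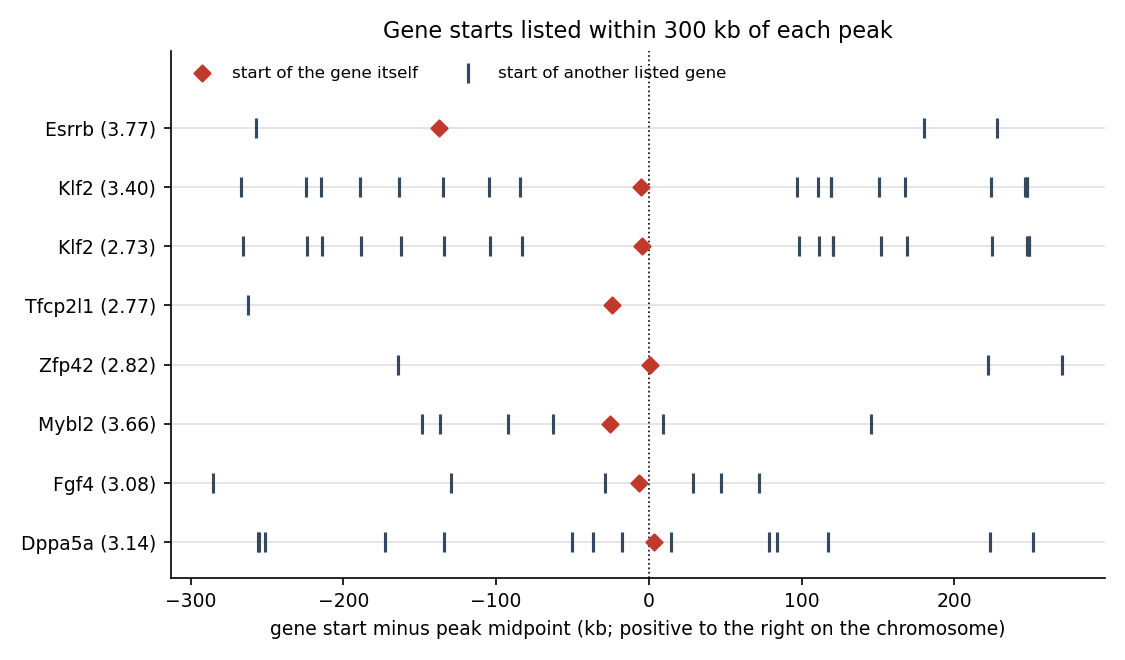
Each row is a peak, named by its gene and log2 fold enrichment, with its midpoint at 0 on the horizontal axis (kb along the chromosome, up to 300 kb to each side). Red diamonds are the start of the gene itself in the wider annotation and dark bars the starts of other listed genes. A start of another gene lies nearer than the gene's own only at Mybl2, and Esrrb, Tfcp2l1 and Zfp42 have no other start within 100 kb.

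The wider annotation adds distant peaks for 2 further members. Klf2 has an entry 359.0 kb upstream (log2 fold enrichment 3.03), where the closest transcript is that of Zfp961. Tfcp2l1 has one 551.5 kb upstream (2.83), 234.7 kb from the start of Tsn and with no closest transcript. Esrrb, Zfp42, Mybl2 and Fgf4 have no additional entry.

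Other genes of the network, and some beyond it, were looked up beside the members. Lists of 16 further naive, 16 core and 13 primed genes, 45 in all and none of them a member, were searched in the same sheets. The primed list is not confined to pluripotency genes, since it also includes Foxa2, Eomes, T and Cer1. None of the naive and core genes was the closest gene of a peak, and 2 of the 13 primed genes were. Nodal, a TGF-β family signal, had a peak in intron 1, 3630 bp from its start (log2 fold enrichment 2.55, FDR 0.592). Foxa2, an endoderm transcription factor, had one past its end, 5842 bp from its start (2.72, FDR 0.429). Both were below the 8 peaks by fold, Foxa2 narrowly. By −log10 Poisson p, Nodal at 6.68 stood above 6 of the 8, and Foxa2 at 5.26 stood above Mybl2. Within 100 kb of a start, 11 of the 45 genes had a listed peak (4 naive, 3 core, 4 primed), against 10.4% of 21900 protein-coding genes. The members were picked out of the same network for being closest to a peak, and the lists leave them out. The contrast in closest peaks, and in distance to the nearest peak, therefore follows from that choice and is no result.

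Among the naive genes with a peak within 100 kb, the distances were 23.1 kb for Prdm14, 35.3 kb for Tet2, 36.6 kb for Dppa3 and 44.5 kb for Nanog. Dppa3 and Nanog, which neighbour each other on chromosome 6, share that peak, at 122613000 to 122613124, with Gdf3 of the core list at 53.0 kb. Its log2 fold enrichment was 2.61 and its FDR 0.529. Of the core genes, Trim28 was nearest at 10.4 kb (2.63), followed by Gdf3, Lin28a at 95.7 kb (3.30) and Sall4 at 110.6 kb (2.62). Of the primed genes, Otx2 followed Nodal and Foxa2 at 23.6 kb (2.75) and Fgf5 at 60.4 kb (3.27). Several of these peaks were nearer to the start of another gene. That gene was Chmp2a for the Trim28 peak, Ubxn11 for Lin28a, Zfp64 for Sall4 and Prdm8 for Fgf5. For the peaks of Prdm14, Tet2, Dppa3 and Otx2 the nearest listed start was that of the gene itself. For 21 of the 45 genes the wider annotation listed no peak. Because the depth is unknown, the absence of an entry does not show the absence of Bcl3, and at these rates an entry does not prove a site.

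**Figure D4:**
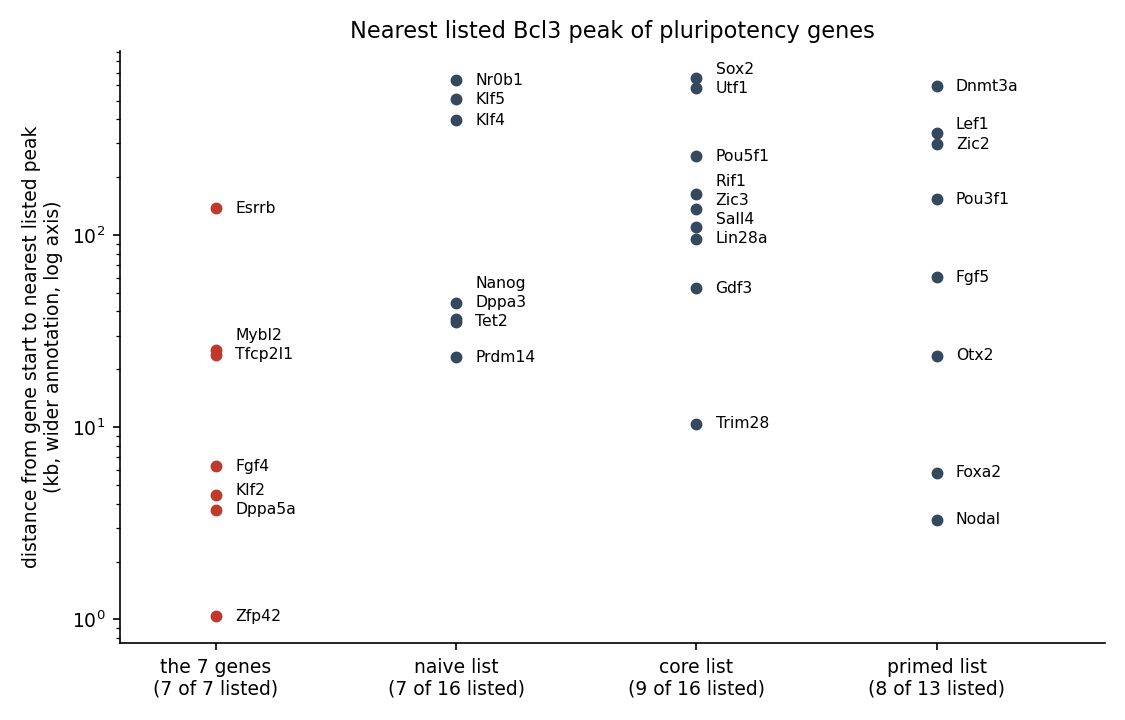
Points give the distance in kb, on a logarithmic axis, from a gene's start to its nearest listed peak in the wider annotation, for the 7 members (red) and for the naive, core and primed lists (dark), with the number of genes that have an entry under each column. The members lie at 1.0 kb (Zfp42) to 137.7 kb (Esrrb), and the naive list genes with an entry at 23.1 kb (Prdm14) or more. The members were chosen for being closest to a peak and the lists leave them out, so this difference follows from the choice and is no result.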

How the data were processed

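Peaks of the Bcl3 ChIP library were used as the authors deposited them. The submitters' processing notes name mm9 as the build. Which aligner and caller made the list, and whether the input served as control, is not given in the sources used here. The deposited peak sheet holds, per the file headers, a log2 fold change, a −log10 Poisson p, an FDR (treated as a q-value) and a T score, which was 1.21 to 1.22 times the log2 value and was not ranked. Peak ends lie on a grid of 25 bp.

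Genes were joined by RefSeq identifier through a GRCm38.p6 gene table (all 623 closest transcripts and 14536 of 14602 wider entries matched). Exon bounds were read as 1-based, since 551 of 554 coding transcripts then had whole codons. Distances were measured from the peak midpoint to the start in the closest-transcript sheet, and places from the summit. Distances of neighbours came from the wider annotation. The placement code was tested on simulated transcripts. Python 3.11.15 and pandas 2.3.3 were used.

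No test was run, since there was 1 library per group. Alternatives were other annotations, reference points, rankings and peak subsets. The members and lists were chosen with earlier results of these data known. Named genes were the members, the nearest starts on either side of each peak, list genes closest to a peak, and the 4 nearest per list.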

Additional observations from a re-analysis of the deposited data

How the results depend on the processing

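The count of 8 peaks was 13 with every entry of the wider annotation, 5 with entries within 10 kb of a start, 7 after merging peaks within 1000 bp, 3 at the lowest FDR and 2 in the upper 565 peaks by Poisson score. The 7 genes became 3 at the lowest FDR, 5 in the upper 563 by fold and 2 in the upper 565 by Poisson score. The 2 other list genes closest to a peak became 0 at the lowest FDR, 2 within 10 kb and 11 within 100 kb in the wider annotation. These subsets hold fewer or more peaks by construction. The median rank of the 8 peaks was 387 by fold and 816.5 by Poisson score, and the cause was not tested. All 8 distances to the start moved by no more than the peak's length with the summit or nearest edge, and 7 of 8 with the wider annotation. The exception was Esrrb. Distances past the end at Klf2 moved by more than that, to 3127 and 2102 bp in the wider annotation. Those at Fgf4 (2415 bp) and Dppa5a (2625 bp) stayed close. All 4 intronic peaks remained clear of exons at every base. No paired analysis was possible because there was 1 library per group. Depth is unknown, so it sets no stated limit.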

Other observations

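Among the 8 peaks, 2 (Esrrb and Zfp42) have deposited boundaries in reversed order, so that the width between them is negative, against 10.4% of all listed peaks. The summit and the position of the greatest fold lay 15 bp (Mybl2) to 135 bp (Zfp42) apart within a peak, and 130 bp apart at Fgf4, whose peak is 225 bp long.
The next listed peaks above and below each of the 8 in log2 fold enrichment differed from it by at most 0.008, the gap below Esrrb. With 1130 peaks listed between 2.48 and 4.02, small gaps are common, so this is not particular to the 8.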
